A study of Mus musculus with 6 samples.

Results

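The genes described here encode matrix metalloproteinases (Mmp), proteases of the ADAMTS family (Adamts), ADAMTS-like proteins without a protease domain (Adamtsl) and tissue inhibitors of metalloproteinases (Timp). The set was defined with earlier results of these data known. Members were taken by name: every gene name that starts with Mmp, Adamts, Adamtsl or Timp followed by a digit, except Mmp9, Mmp13 and Mmp14. That gave 48 of 24346 gene names, of which 20 are Mmp, 19 Adamts, 5 Adamtsl and 4 Timp genes. Of these, 35 averaged 1 FPKM or more over all libraries and were tested: 8 Mmp, 18 Adamts, all 5 Adamtsl and all 4 Timp genes. FPKM is a level per transcript length and per library size, so that values of different genes can be set side by side. The other 13 lay under 1 FPKM and were not tested, and they are described by their range.

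The tissue was calvaria, the roof of the skull, of newborn mice. Per the labels it held the interparietal and occipital bones but no ear cartilage. The control group is 3 libraries of Pth1rfl/fl craniums, with floxed alleles of Pth1r, the receptor for parathyroid hormone and its related protein. The other group is 3 libraries labelled mutant, of genotype Prx1-Cre;Pth1rfl/fl, so both groups carry the floxed alleles and Cre is what the labels give as the difference. Prx1-Cre is known to be active in mesenchyme of the limb buds and part of the skull, so that cells of other origin in the tissue keep their alleles. Age beyond newborn, strain background and the number of animals in a library are not given in the sources used here. By Xist against Y-linked genes, 2 of 3 controls and 1 of 3 libraries labelled mutant read as female. Each group thus mixes the sexes, in unlike proportions, and its libraries are not all from 1 animal. Nothing says that every library comes from a separate animal. The p-values set the difference between the groups against the spread between these libraries, part of which may be technical. The study's title concerns Pth1r signalling, the cartilage of the calvaria and the closing of its sutures.

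The targeted gene goes against the label. Pth1r was at 89.2, 93.3 and 102 FPKM in controls 1 to 3 and at 127, 125 and 142 FPKM in the libraries labelled mutant 1 to 3. The groups did not overlap and the libraries labelled mutant were the higher ones. The means were 94.8 ± 6.55 and 131 ± 9.45 FPKM (SD, n = 3 each), with an exact two-sided permutation p of 0.1, the smallest that 3 against 3 libraries can give, and a limma adjusted p of 0.065. The sources used here do not say which exon is floxed, and the level of a whole gene cannot show that an exon is lost. The group is therefore called "labelled mutant" throughout, and every direction below is that of the labels.

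The sources used here give no read totals, and the absolute depth is therefore unknown. The steps between the lowest values gave relative depths of 0.703 to 1 with control 1 set to 1, and labelled mutant 3 was the shallowest. Between 17042 and 17610 names were above 0 in a library. The tissue label held for its defining genes: 8 osteoblast markers summed to 9994 to 11674 FPKM in controls, against 9946 to 13743 FPKM in the libraries labelled mutant. Col1a1 makes up most of these sums, at 9427 to 13131 FPKM. The groups did not overlap for 5 of the 8, with Bglap (ratio 0.381) and Bglap2 (0.387) on the lower side and Runx2 (1.21), Dmp1 (1.38) and Phex (1.35) on the higher side, and none passed the test described below. Muscle, blood and cartilage RNA was present in every library, and the levels that move with the groups are given after the members.

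Matrix metalloproteinases and ADAMTS proteases are zinc enzymes that cut collagens, proteoglycans and other proteins of the extracellular matrix. Both are made as inactive precursors, and many are opened by furin-like convertases or by other proteases. Timp proteins bind the active site and block it, and Timp3 also blocks several ADAMTS enzymes. In the growing skull, bone is laid down by osteoblasts and removed by osteoclasts while cartilage is partly replaced, and all of these steps need matrix to be cut. Mmp9 and Mmp13, the gelatinase of osteoclasts and the collagenase of hypertrophic cartilage and bone cells, and Mmp14, the membrane enzyme that activates Mmp2, stand outside the set and serve as a comparison.

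The feature that splits the set into enzymes and non-enzymes is the coding stretch for the zinc-binding site, in which 3 histidines hold the metal and a glutamate acts in catalysis. The stretch was searched in the coding sequence of the longest coding GENCODE M21 transcript of each gene on GRCm38. It has 11 codons (33 bases), and it was found in 20 of 20 Mmp and 19 of 19 Adamts genes, but in 0 of 5 Adamtsl and 0 of 4 Timp genes. The stretches below show the most abundant member, members of contrasting level and direction, and the variants of the site. Capitals mark the codons for the first histidine and the glutamate, the second histidine, the eighth codon and the third histidine, read 5′ to 3′ on the coding strand.
Mmp2: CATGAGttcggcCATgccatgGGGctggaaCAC
Mmp8: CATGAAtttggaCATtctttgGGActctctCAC
Adamts2: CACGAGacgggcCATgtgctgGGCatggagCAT
Adamts18: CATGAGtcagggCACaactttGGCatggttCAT
Adamts5: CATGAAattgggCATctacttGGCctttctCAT
Adamts1: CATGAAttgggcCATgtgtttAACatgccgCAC
Adamts8: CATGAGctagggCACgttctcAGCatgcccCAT

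The Mmp stretches each lay within a single exon, as in Mmp2 at chr8:92839279-92839311 (plus strand) and Mmp8 at chr9:7563086-7563118 (plus strand). The Adamts stretches were each split over 2 exons, so the spans that follow include an intron. They were chr11:50775403-50776134 (plus) for Adamts2, chr8:113767168-113771052 (minus) for Adamts18, chr16:85878015-85887826 (minus) for Adamts5, chr16:85799191-85799545 (minus) for Adamts1 and chr9:30952721-30953378 (plus) for Adamts8. The eighth codon read glycine in all 20 Mmp and in 13 Adamts genes, asparagine in 5 Adamts genes (Adamts1, Adamts4, Adamts9, Adamts15 and Adamts20), and serine in Adamts8. All 6 Adamts genes without the glycine codon belong to the group of proteoglycan-cutting enzymes, whose remaining member here, Adamts5, has it.

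A few genes carried most of the signal. Mmp2, Timp2 and Timp1 were the 3 members with a mean of at least 100 FPKM, 16 members were at 10 FPKM or above, and 19 lay between 1 and 10 FPKM. Mmp2, Timp1, Timp2 and Timp3 together made up 66.9% to 69.2% of the summed FPKM of the members in each library. Among the Mmp members, Mmp2 alone made up 74.3% to 79.9%. The leading Adamts genes were Adamts10, with a mean of 64.3 FPKM over the 6 libraries, and Adamts2, with 46.8 FPKM, while Adamts20 and Adamts6 were the lowest tested, at 1.25 and 1.15 FPKM.

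**Figure D1:**
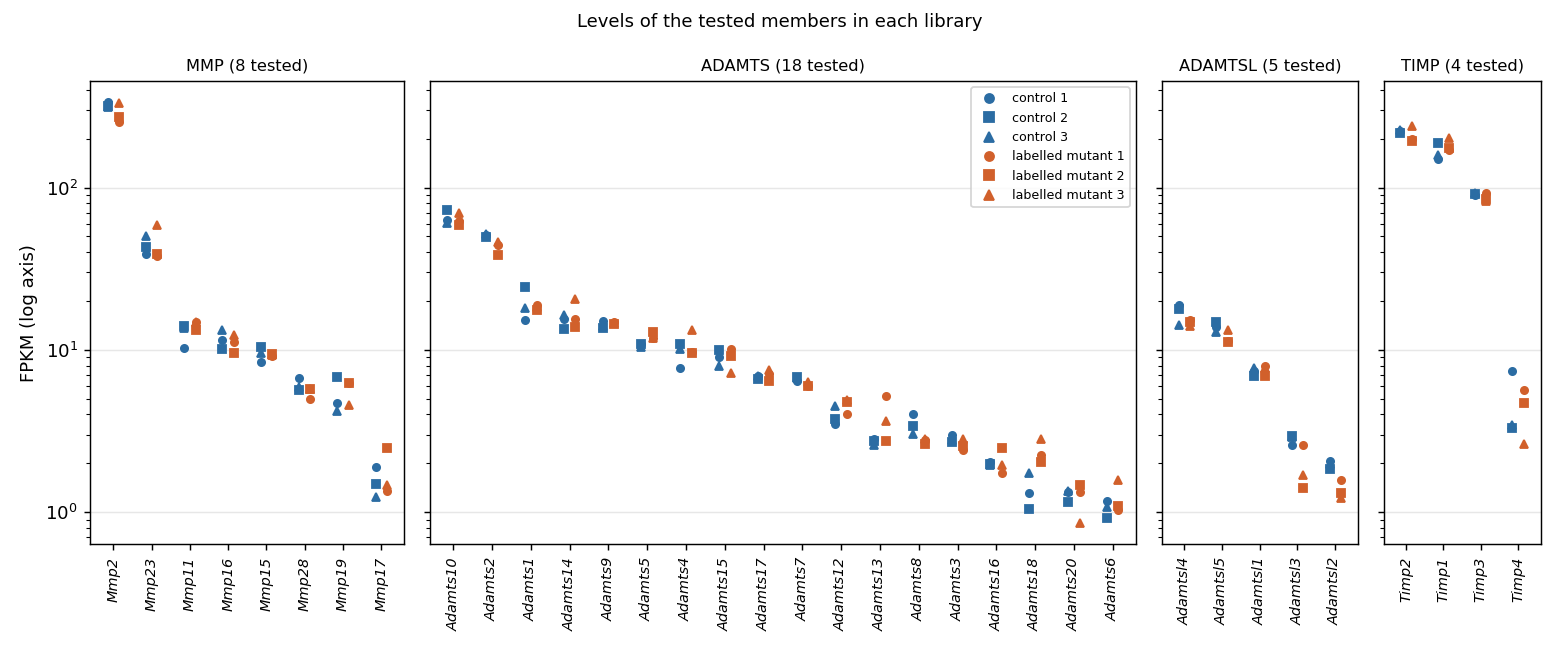
Level of each of the 35 tested members in each library, in FPKM on a log axis, by family and in falling order of the mean. Blue points are controls 1 to 3 and orange points the libraries labelled mutant 1 to 3. Mmp2, Timp2 and Timp1 stand above 100 FPKM, and for 28 members the points of the groups overlap.

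No member passed the threshold in the comparison of the groups. By limma on log2(FPKM + 1), with p-values adjusted over 13180 genes, 0 of 35 members were higher and 0 were lower at an adjusted p under 0.05, while 0.607% of all genes tested were called (0.524% higher and 0.0835% lower). At that background a set of this size would hold few calls or none, so the count of 0 says little by itself, and the sizes of the differences and their intervals carry the result. At an unadjusted p under 0.05 there were 6 members (17.1%), against 10.5% of all genes: 2 on the higher side in the libraries labelled mutant (Adamts18 and Adamts5, where the share of all genes was 5.91%) and 4 on the lower side (Adamts2, Adamts8, Adamtsl2 and Adamtsl3, where it was 4.62%). The smallest adjusted p of any member was 0.242, for Adamts18.

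The estimates were small in both directions. With 16 higher and 19 lower, the members' median log2 difference was -0.03, and that of all genes was 0.00. Their median size regardless of sign was 0.12 on the log2 scale, against 0.08 over all genes. The estimates ran from -0.42 for Adamtsl3 to 0.52 for Adamts18, which as ratios of mean FPKM were 0.674 and 1.74. By family the medians were -0.00 for Mmp, 0.03 for Adamts, -0.20 for Adamtsl and -0.07 for Timp genes.

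The intervals bound what could have been missed. The 95% interval lay within a 2-fold change of FPKM + 1 for 35 of 35 members, and within a 1.5-fold change for 31. Of all 13180 genes tested, 12747 lay within 2-fold and 11509 within 1.5-fold. Such bounds are thus common and not particular to the members. The 4 wider ones were Adamts18, Adamtsl3, Adamts13 and Timp4, all under 10 FPKM, and all 16 members at or above that level lay within 1.5-fold. Adding 1 to FPKM pulls low genes toward no difference, so the bounds were also taken with a smaller pseudocount of 0.1. With it, 33 members lay within 2-fold and 25 within 1.5-fold. The 2 outside were Adamts18 at 0.77 (95% interval 0.24 to 1.30) and Adamtsl3 at -0.59 (-1.10 to -0.07). Larger changes of either of these low genes are thus not bounded as tightly as those of the abundant members.

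The genes left out of the set set the scale. Mmp9 was at 83.4, 118 and 114 FPKM in controls and at 375, 349 and 384 FPKM in the libraries labelled mutant. It rose 3.52-fold, by 1.82 ± 0.13 on the log2 scale (SE, limma adjusted p = 0.0035). Mmp13 rose 2.61-fold, from 72.8, 59.4 and 54.2 to 169, 162 and 156 FPKM (adjusted p = 0.0042 by limma). Mmp14, at 276, 294 and 299 against 288, 277 and 340.1 FPKM, differed by 0.05 ± 0.09 with overlapping groups (limma adjusted p = 0.908). On log2(FPKM + 1), the intervals of Mmp9 (1.51 to 2.13) and Mmp13 (1.13 to 1.64) lie above the upper end of every member's interval, which is at most 0.86. That separation depends on the pseudocount for low genes. With a pseudocount of 0.1 the interval of Adamts18 reached 1.30.

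**Figure D2:**
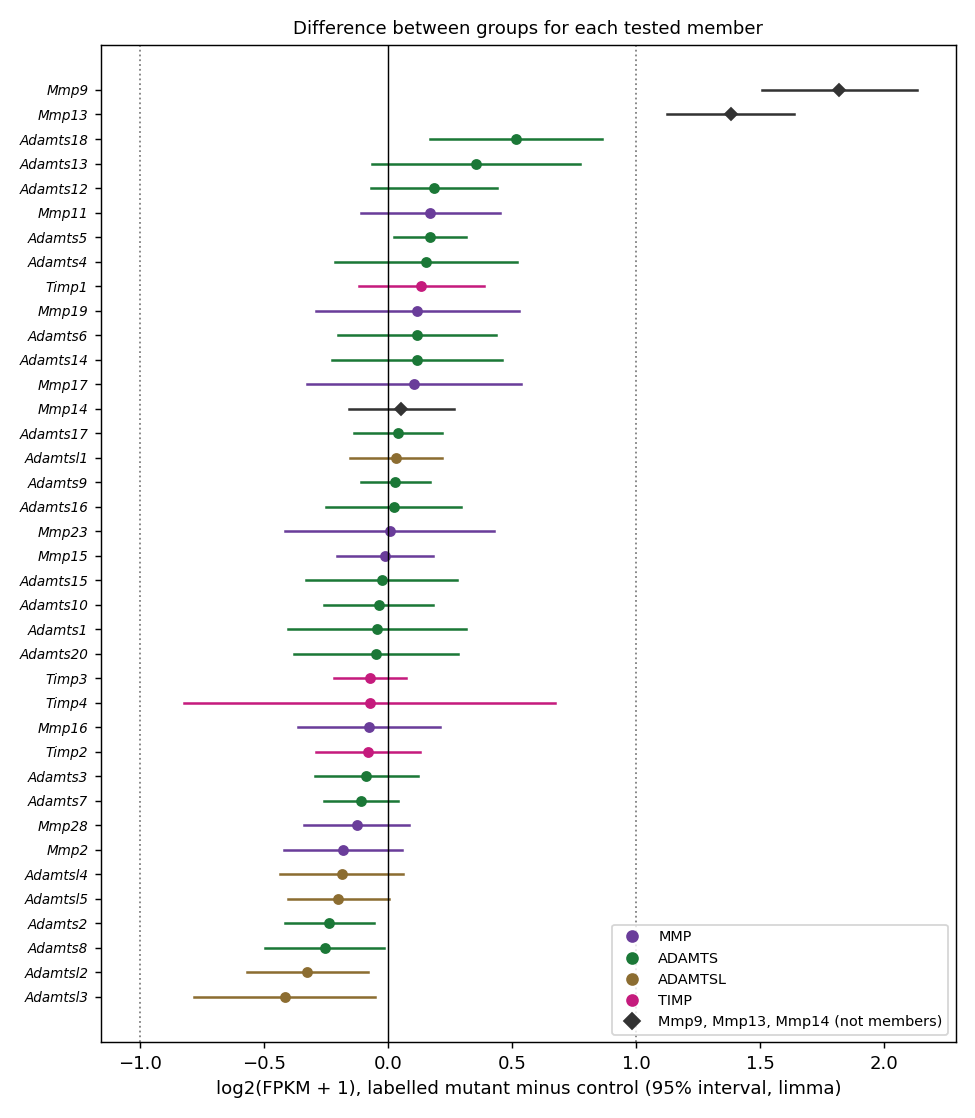
Difference in log2(FPKM + 1), labelled mutant minus control, for the 35 tested members and for Mmp9, Mmp13 and Mmp14 (diamonds), with 95% intervals from limma, in order of size. Dotted lines mark a 2-fold change. The members' intervals all lie between the dotted lines, while those of Mmp9 and Mmp13 lie to the right of them.

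Mmp2, the gelatinase that also cuts type I collagen and is activated at the cell surface by Mmp14 with Timp2, was the most abundant member. It was at 336, 316 and 315 FPKM in controls 1 to 3 and at 255, 272 and 330.4 FPKM in labelled mutant 1 to 3. Labelled mutant 1 and 2 lay below every control, while labelled mutant 3 lay among them. The means were 322 ± 12.1 and 286 ± 39.4 FPKM (SD, n = 3 each), a log2 difference of -0.18 ± 0.10 (SE, limma adjusted p = 0.623). Without labelled mutant 3 the difference was -0.29 and the adjusted p 0.214, the lowest of the alternatives, which ran up to 0.907. That library thus changes the size but not the call.

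Mmp11, the stromelysin made by stromal cells and cleaved by furin within the cell, was at 10.3, 14.1 and 13.7 FPKM in controls and at 14.8, 13.3 and 14.8 FPKM in the libraries labelled mutant. Control 1 was the lowest and the rest lay close together. The log2 difference was 0.17 ± 0.12 (SE, limma adjusted p = 0.707). The other stromelysins were near the floor, with Mmp3 between 0.135 and 0.462 FPKM and Mmp10 at no more than 0.132 FPKM.

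Among the membrane-anchored enzymes, Mmp23 was the most abundant, at 38.8, 43.3 and 50.7 FPKM in controls, against 38.1, 38.7 and 58.6 FPKM in the libraries labelled mutant. Its highest value was in labelled mutant 3 and its lowest in labelled mutant 1, so the groups overlapped, with a log2 difference of 0.01 ± 0.18 (SE). That difference took either sign depending on the library left out. Mmp16, a relative of Mmp14 that activates Mmp2, was at a mean of 11.3 FPKM with a ratio of 0.943. Mmp15 was at 9.38 FPKM with a ratio of 0.987, and the lipid-anchored Mmp17 at 1.66 FPKM with a ratio of 1.14. The groups overlapped for all of these, and the 2 others of the class, Mmp24 and Mmp25, lay under 1 FPKM on average.

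The remaining tested secreted enzymes were Mmp28 and Mmp19. Mmp28, an epilysin cleaved by furin, was at 6.75, 5.63 and 5.88 FPKM in controls, against 4.99, 5.72 and 5.75 FPKM in the libraries labelled mutant, a log2 difference of -0.13 ± 0.09 (SE). Mmp19, a broad enzyme of basement membrane proteins, was at 4.71, 6.76 and 4.23 against 6.26, 6.28 and 4.60 FPKM, with a difference of 0.12 ± 0.17. Both overlapped between the groups, with limma adjusted p-values of 0.717 and 0.891. Mmp19 shares 789 exon bases with Tmem198b on the other strand, Mmp28 shares 466 with 1700020L24Rik, and Mmp11 shares 155 with Chchd10. The sources used here do not say whether counting used strand, so reads of such pairs cannot be told apart.

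Most Mmp members under 1 FPKM lie in the cluster of Mmp genes on chromosome 9, which on GRCm38 runs from 7272514 to 7699585, over 427 kb. It holds 10 genes in the order Mmp13, Mmp12, Mmp1b, Mmp3, Mmp1a, Mmp10, Mmp8, Mmp27, Mmp20 and Mmp7, of which all but Mmp13 are members. Mmp13 was at 54.2 to 169 FPKM, while no value of the 9 others in any library passed 1.53 FPKM. Mmp1a (annotated as a polymorphic pseudogene), Mmp1b and Mmp7, the last a matrilysin of epithelia, were listed at 0 in every library. Mmp12, the macrophage elastase, was at 0.0836 FPKM or less, and Mmp20, the enzyme of tooth enamel, at 0.0200 FPKM or less. Mmp27 was above 0 in labelled mutant 3 alone, at 0.0512 FPKM. The rise of Mmp13 was thus accompanied by levels near 0 for its neighbours in both groups. Their differences were not tested, apart from the fit with no filter, because of the floor on the mean.

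Mmp8, the collagenase of neutrophils, was the one gene of the cluster besides Mmp13 whose values passed 1 FPKM in any library. It was at 0.672, 0.411 and 0.481 FPKM in controls and at 1.53, 1.22 and 0.725 FPKM in the libraries labelled mutant. The groups did not overlap, and the mean ratio was 2.22. In the fit with no filter its limma adjusted p was 0.356. Neutrophil granule genes were mixed. The groups did not overlap for 2 of 8 markers: S100a8 was at 17.8, 22.5 and 26.5 against 41.2, 41.3 and 28.2 FPKM, and Ngp at 1.37, 1.30 and 1.498 against 5.24, 4.29 and 1.87 FPKM. They overlapped for the other 6, among them S100a9 at 14.4, 19.2 and 21.7 against 43.0, 24.4 and 14.2 FPKM, and Elane and Mpo had the lower mean in the libraries labelled mutant. The 8 neutrophil markers summed to 39.1 to 55.0 FPKM in controls, against 47.6 to 100.4 FPKM in the libraries labelled mutant, 6 of 8 with the higher mean there and 0 of the 5 tested past the threshold. Their part in the Mmp8 values was not tested. In bulk tissue, fewer cells of a type and less RNA in each cell cannot be told apart.

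**Figure D3:**
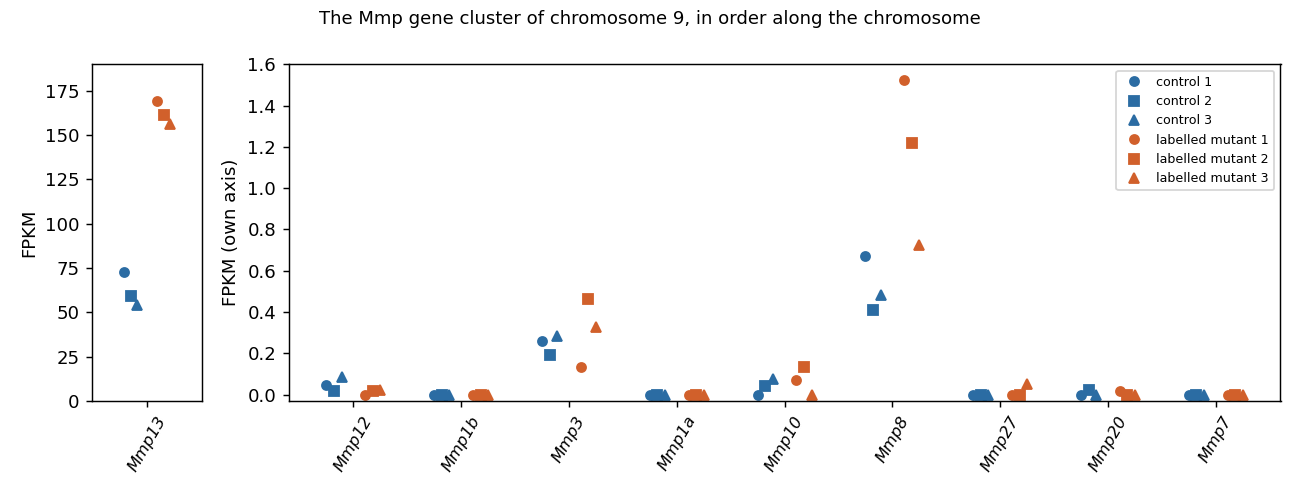
FPKM in each library for the 10 genes of the Mmp cluster of chromosome 9, in chromosome order, with Mmp13 on its own axis at the left. Blue points are controls and orange points the libraries labelled mutant. Mmp13 lies at 54.2 to 169 FPKM, and the others lie at or near 0 apart from Mmp8 and, lower, Mmp3.

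The Mmp members outside the cluster and under 1 FPKM were Mmp21, Mmp24 and Mmp25. Mmp24, a membrane enzyme known from the nervous system, was at 0.735, 0.660 and 0.541 FPKM in controls and at 0.431, 1.35 and 0.126 FPKM in the libraries labelled mutant. Its highest and lowest values both fell in the latter group, and the neuronal genes Tubb3 (28.7, 20.7 and 23.9 against 10.5, 59.2 and 7.63 FPKM) and Stmn2 (11.1, 6.98 and 10.2 against 5.87, 26.9 and 4.50 FPKM) were highest in the same library, labelled mutant 2, and lowest in labelled mutant 3. Of the 10 neural markers, 7 were highest in labelled mutant 2 and 8 lowest in labelled mutant 3, while Snap25, Gfap and Slc17a7 were highest in a control. The part of neural tissue in the Mmp24 values was not tested. Mmp24 also shares 637 exon bases with BC029722 on the other strand, a gene at 19.7 to 23.8 FPKM. Mmp25 of leukocytes lay between 0.378 and 0.770 FPKM, and Mmp21 was above 0 in control 1 alone.

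The proteoglycanases of the ADAMTS family cut aggrecan, versican and related cores. Adamts1 and Adamts9 were the most abundant, with means of 18.8 and 14.4 FPKM, and the class had 3 higher and 4 lower estimates with a median log2 difference of -0.03. Adamts1 was at 15.3, 24.4 and 18.1 FPKM in controls and at 19, 17.6 and 18.4 FPKM in the libraries labelled mutant. Control 2 was the highest and control 1 the lowest, and the log2 difference was -0.04 ± 0.15 (SE, limma adjusted p = 0.957).

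Adamts5, the main aggrecanase of mouse cartilage, was at 10.8, 10.9 and 10.5 FPKM in controls and at 11.8, 12.9 and 11.8 FPKM in the libraries labelled mutant. Every library labelled mutant lay above every control, by a mean ratio of 1.14. The log2 difference was 0.17 ± 0.06 (SE) and did not pass (limma adjusted p = 0.375). Adamts5 lies 53.1 kb from Adamts1 on chromosome 16, at 85856173 to 85901828 on the minus strand. In controls its spread relative to the mean was the smaller of this pair, 2.07% against 24.3% for Adamts1. In the libraries labelled mutant it was the larger, 5.04% against 3.71%.

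Adamts8, which has the serine codon in its zinc site, was at 4.0, 3.39 and 3.04 FPKM in controls and at 2.78, 2.61 and 2.83 FPKM in the libraries labelled mutant. All 3 of the latter lay below the lowest control, with a mean ratio of 0.787. The log2 difference was -0.26 ± 0.10 (SE, limma adjusted p = 0.433). Adamts15 lies 20.1 kb from it on chromosome 9 and had a mean of 8.92 FPKM and a ratio of 0.985. Adamts4, the other well-known aggrecanase, was at 10.2 FPKM with a ratio of 1.12. Adamts8 shares 489 exon bases with an antisense gene, Gm29724, on the other strand.

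The procollagen N-proteinases Adamts2, Adamts3 and Adamts14 remove the amino-terminal propeptide of fibrillar procollagens. Adamts2, at chromosome 11 from 50602084 to 50807573 on the plus strand, was at 50.7, 49.8 and 51.4 FPKM in controls and at 44.0, 38.6 and 46.4 FPKM in the libraries labelled mutant. The controls agreed closely, and the libraries labelled mutant all lay below them. The means were 50.7 ± 0.819 and 43.0 ± 3.96 FPKM (SD, n = 3 each), a ratio of 0.849, and the log2 difference was -0.24 ± 0.08 (SE, limma adjusted p = 0.297). Adamts14 was at 15.5, 13.4 and 16.5 against 15.5, 13.9 and 20.6 FPKM, and Adamts3 had a mean of 2.72 FPKM and a ratio of 0.921. For the class, 1 estimate was higher and 2 were lower.

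Of the other ADAMTS genes, Adamts10, known for its binding to fibrillin microfibrils, was the most abundant, at 62.8, 72.6 and 60.1 FPKM in controls, against 62.0, 58.8 and 69.4 FPKM in the libraries labelled mutant. Its groups overlapped, with a log2 difference of -0.04 ± 0.09 (SE, limma adjusted p = 0.944). Adamts18 had the largest estimate of any member. It was at 1.31, 1.04 and 1.75 FPKM in controls and at 2.27, 2.04 and 2.81 FPKM in the libraries labelled mutant, so that the groups did not overlap. The means were 1.37 ± 0.355 and 2.37 ± 0.398 FPKM (SD, n = 3 each). The log2 difference was 0.52 ± 0.15 (SE, 95% interval 0.17 to 0.86), with an adjusted p of 0.242 by limma. The gene lies on chromosome 8 from 113697126 to 113848738 on the minus strand.

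Adamts7 and Adamts13 were singled out after their values were seen. Adamts7, a protease of cartilage oligomeric matrix protein, was at 6.44, 6.78 and 6.70 FPKM in controls and at 5.96, 5.99 and 6.31 FPKM in the libraries labelled mutant, the remaining member whose groups did not overlap, with a ratio of 0.916. It shares 122 exon bases with Tbc1d2b on the other strand. Adamts13, the enzyme that cuts von Willebrand factor, was at 2.84, 2.73 and 2.60 against 5.23, 2.74 and 3.62 FPKM, and the high value of labelled mutant 1 widens its interval. Adamts12, Adamts16, Adamts17 and Adamts6 had means of 4.24, 2.03, 6.90 and 1.15 FPKM and ratios of 1.17, 1.03, 1.04 and 1.18. Adamts19 was the one Adamts gene under the floor, at 0.447 to 0.748 FPKM.

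The ADAMTS-like genes encode secreted proteins that bind microfibrils and other matrix but hold no protease domain. Of 5 tested, 4 had the lower estimate in the libraries labelled mutant, and none passed. Adamtsl2, known for binding to fibrillin and to a latent TGF-beta binding protein, was at 2.05, 1.84 and 1.99 FPKM in controls and at 1.57, 1.32 and 1.22 FPKM in the libraries labelled mutant. The groups did not overlap, with a ratio of 0.698 and a log2 difference of -0.32 ± 0.10 (SE, limma adjusted p = 0.297). It lies on chromosome 2 from 27079379 to 27108981, 69.8 kb from Adamts13, whose estimate had the other sign.

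Adamtsl3 was at 2.60, 2.93 and 2.92 FPKM in controls and at 2.58, 1.41 and 1.70 FPKM in the libraries labelled mutant. Labelled mutant 1 was just below the lowest control and the other two were far below it. The ratio was 0.674 and the log2 difference -0.42 ± 0.15 (SE, limma adjusted p = 0.395). Without labelled mutant 1 the adjusted p was 0.204, the lowest of the alternatives, which ran up to 0.644.

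The more abundant ADAMTS-like genes differed less. Adamtsl5 was at 13.8, 14.9 and 12.8 FPKM in controls and at 11.4, 11.2 and 13.2 FPKM in the libraries labelled mutant, a log2 difference of -0.20 ± 0.09 (SE, limma adjusted p = 0.486). Adamtsl4, known for its part in the fibres that hold the lens, was at 18.9, 17.8 and 14.2 against 15.2, 14.9 and 14.0 FPKM (-0.19 ± 0.10). In each, 1 library lay within the range of the other group, labelled mutant 3 for Adamtsl5 and control 3 for Adamtsl4. Adamtsl1 was at 7.36, 6.86 and 7.74 against 7.92, 6.87 and 7.79 FPKM, with a difference of 0.03 ± 0.08.

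**Figure D4:**
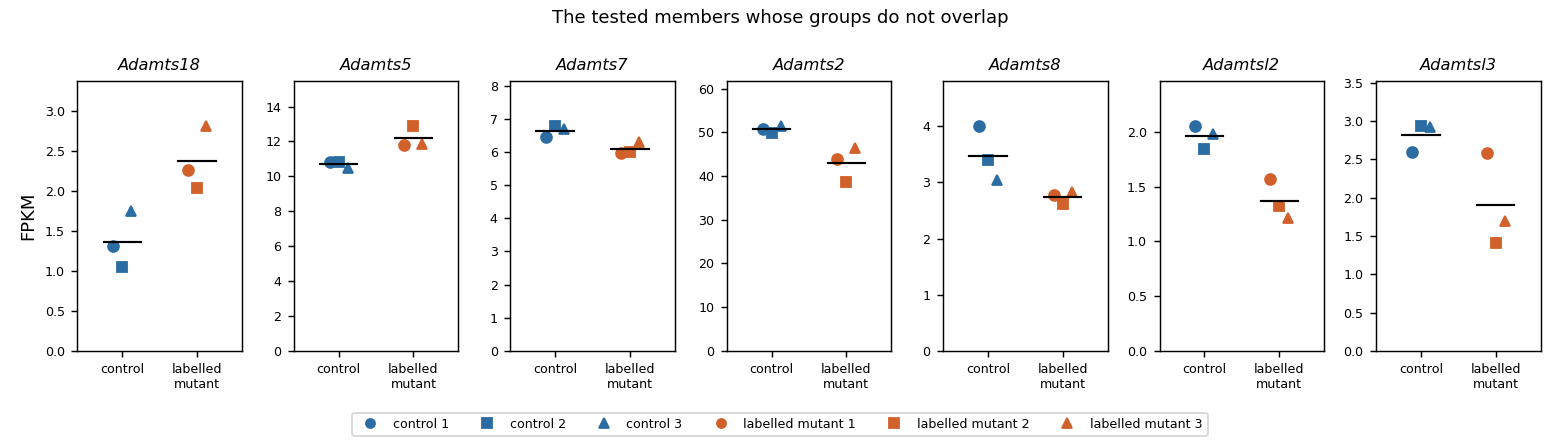
FPKM in each library for the 7 tested members whose groups do not overlap, each on its own axis from 0, with the group means as black lines. Blue points are controls and orange points the libraries labelled mutant. Adamts18 and Adamts5 lie higher in the libraries labelled mutant, and Adamts7, Adamts2, Adamts8, Adamtsl2 and Adamtsl3 lie lower.

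Those 7 members whose groups did not overlap were 20% of the 35 tested, against 16.1% of all genes tested. The 2 with the libraries labelled mutant above compare with 9.34% of all genes, and the 5 with them below with 6.79%. All 7 are Adamts or Adamtsl genes, and for all 8 tested Mmp and all 4 Timp genes the groups overlapped. A share this near the background is not a result about the members.

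The Timp genes were abundant and differed little. Timp1, induced by many growth factors and cytokines, was at 150.2, 188 and 159.9 FPKM in controls and at 169, 174 and 203 FPKM in the libraries labelled mutant. Timp2, which also takes part in the activation of Mmp2, was at 224, 217 and 225 against 199, 194 and 239.8 FPKM. Labelled mutant 3 was the highest library for both. The log2 differences were 0.13 ± 0.11 for Timp1 and -0.08 ± 0.09 for Timp2 (SE), with adjusted p-values of 0.756 and 0.843 by limma.

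Timp3, the inhibitor that is held in the matrix and has the widest range of targets, had values of 89.4, 91.0 and 93.1 FPKM in controls, against 92.7, 84.5 and 82.9 FPKM in the libraries labelled mutant. Labelled mutant 1 lay among the controls and the other two below them. The log2 difference was -0.07 ± 0.06 (SE, limma adjusted p = 0.779), with means of 91.2 ± 1.85 and 86.7 ± 5.26 FPKM (SD, n = 3 each). Timp4, known from heart and muscle, was at 7.42, 3.32 and 3.45 against 5.68, 4.71 and 2.64 FPKM, and its difference was -0.07 ± 0.32. Its highest and lowest libraries, control 1 and labelled mutant 3, were also the highest and lowest for the muscle actin Acta1 (7812, 4796 and 5415 against 5036, 6507 and 3994 FPKM). The part of muscle in the Timp4 values was not tested, and its sign turned without control 1 or without labelled mutant 3.

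Timp1, Timp3 and Timp4 each lie within a synapsin gene on the opposite strand, Syn1, Syn3 and Syn2 in turn. Timp3 shares 1733 exon bases with Syn3, Timp4 shares 90 with Syn2, and Timp1 shares 0 with Syn1. The hosts were low: Syn1 at 1.22 to 3.33, Syn2 at 0.841 to 1.80 and Syn3 at 0.370 to 0.910 FPKM. Timp1 and Timp3 were thus far above their hosts in every library, and Timp4 was above its own by less.

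Summed over the set, the libraries did not separate by group. The members' total was 1156, 1192 and 1158 FPKM in controls, against 1070.4, 1063 and 1243 FPKM in the libraries labelled mutant, with labelled mutant 3 the highest and the other two of that group the lowest. The Mmp members summed to 421, 409.9 and 415 against 344, 361 and 439 FPKM, the Adamts genes to 219.9, 237 and 222 against 221, 208 and 237 FPKM, and the Timp genes to 471, 500.02 and 481 against 467, 457 and 528 FPKM. The Adamtsl genes summed to 44.6, 44.3 and 39.7 against 38.6, 35.7 and 37.9 FPKM, the one family whose sums did not overlap.

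With Mmp9, Mmp13 and Mmp14 included, the Mmp total did separate. It was 853, 881 and 882 FPKM in controls, against 1176, 1149 and 1319 FPKM in the libraries labelled mutant. Mmp9 and Mmp13 made up 18.3%, 20.1% and 19% of that total in controls, against 46.3%, 44.5% and 40.9% in the libraries labelled mutant. Of the Mmp genes tested, these were the 2 called higher. Their share of the summed Mmp FPKM more than doubled while the inhibitors' sum overlapped between the groups. The set was defined without Mmp9 and Mmp13 and with earlier results of these data known. Their contrast with the members was therefore set in part by that choice.

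**Figure D5:**
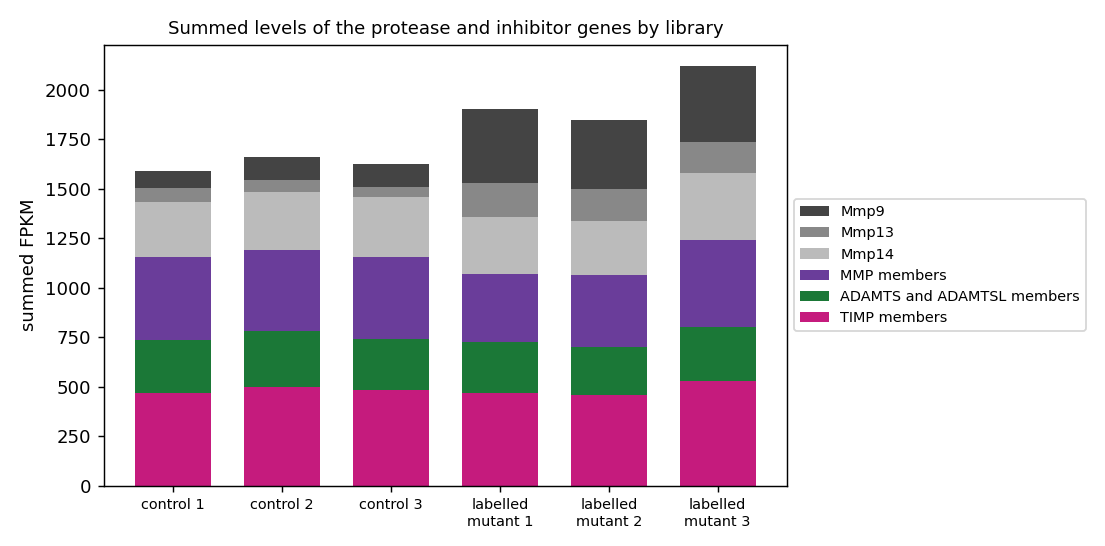
Summed FPKM in each library, stacked from the Timp members at the bottom through the Adamts and Adamtsl members and the Mmp members to Mmp14, Mmp13 and Mmp9. The lower 3 bands, which are the members, total 1063 to 1243 FPKM with no separation of the groups, and the top 2 bands, Mmp13 and Mmp9, are thicker in the libraries labelled mutant.

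Other genes of the same pathways were taken from lists of activators, related protease families and substrates. Among activators, receptors and other inhibitors, 18 were tested, 1 was called higher and 0 lower, and the median log2 difference was -0.01. The gene called was Serpine2, an inhibitor of plasminogen activators and thrombin. It was at 104, 104 and 119 FPKM in controls, against 179.8, 187 and 178 FPKM in the libraries labelled mutant, a 1.67-fold rise (0.74 ± 0.07 on the log2 scale, limma adjusted p = 0.0086). Without labelled mutant 1 its adjusted p was 0.0644, and over all alternatives it ran from 0.0049 to 0.068. Reck, a membrane-anchored inhibitor of several Mmp enzymes, was at 40.2, 37.2 and 38.6 against 31.5, 31.1 and 35.2 FPKM and did not pass (-0.24, limma adjusted p = 0.235), nor did Spock3 (-0.36, adjusted p = 0.203). A2m and Plg of this list averaged under 1 FPKM and were not tested. A2m was at 1.34, 1.38 and 0.840 against 0.527, 0.538 and 0.347 FPKM, a ratio of 0.397 with no overlap of the groups. Plg was at 0.0966 FPKM or less.

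The next list held genes of the ADAM and astacin families, which are relatives, and also the serine proteases Fap, Htra1 and Htra3, which are not. Of 15 tested in this mixed list, 0 were called, with 9 higher and 6 lower estimates and a median of 0.03. Their smallest p-values were those of Tll1, a procollagen C-proteinase at 2.98, 2.89 and 3.14 against 2.34, 2.25 and 2.32 FPKM, and Adam10, a sheddase at 22.5, 23.2 and 25.9 against 28.0, 26.7 and 28.9 FPKM. Neither passed, with limma adjusted p-values of 0.245 and 0.309.

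Substrates were counted as well. Of 6 aggregating proteoglycan and link protein genes 0 were called, with 3 higher and 3 lower. Acan, which encodes aggrecan, was at 107, 102 and 74.3 against 71.5, 53.8 and 63.9 FPKM (limma adjusted p = 0.237), and Vcan, which encodes versican, had a ratio of 0.901 (adjusted p = 0.467). Of 8 fibrillar collagen genes 0 were called, with 3 higher and 5 lower.

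The cartilage collagen Col2a1 had the smallest p-value of the collagens, at 802, 788 and 348 against 188, 135 and 149 FPKM (limma adjusted p = 0.0638), followed by Col11a2 (ratio 0.775, adjusted p = 0.436). Without control 3, whose value is the lowest of its group, Col2a1 was called lower (limma adjusted p = 0.0079, with 0.0573 to 0.203 in the other alternatives). Of 14 microfibril and adhesive glycoprotein genes, 10 had the lower estimate, 0 were called and the median was -0.14. The groups did not overlap for 8 (57.1%), all with the libraries labelled mutant below, against 6.79% of all genes tested. The median lay on the same side as that of the ADAMTS-like genes, and a relation between these sets was not tested. Eln, which encodes elastin, was at 613, 701 and 596 against 437, 421 and 470.2 FPKM (-0.52, limma adjusted p = 0.0588), and Nid2, of basement membranes, had a ratio of 0.835 (adjusted p = 0.227).

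Markers of several cell types moved with the groups. Osteoclast markers rose, 8 of 10 past the threshold, and summed to 575 to 618 FPKM in controls, against 1366 to 1486 FPKM in the libraries labelled mutant. All 12 chondrocyte markers tested had the lower estimate, the groups did not overlap for 10, and 4 passed. Their sums were 1168 to 2290 and 541 to 690.1 FPKM. All 5 markers of hypertrophic cartilage were higher with no overlap of the groups. Their sums were 1085 to 1252 and 1829 to 2434 FPKM, and 1 of the 5 passed. That gene was Ibsp (831 to 2004 FPKM, limma adjusted p = 0.0306), which makes up most of the sum and is also a matrix gene of osteoblasts, while the more specific Col10a1 (ratio 2.50, adjusted p = 0.109) and Ihh (ratio 1.21, adjusted p = 0.545) did not pass. Of 9 macrophage markers 8 had the higher estimate, 3 did not overlap and 2 passed, with sums of 394 to 456 and 495 to 521 FPKM. The 2 that passed were Cd68 (ratio 1.99) and Csf1r (ratio 1.49). The groups overlapped for 6 macrophage markers, with ratios from 0.992 (Cd163) to 1.18 (C1qc). Of 8 endothelial markers 7 had the higher estimate, 6 did not overlap and 1 passed. None of the osteoblast or muscle markers passed, 0 of 8 and 0 of 10. Over all genes tested, 9.34% did not overlap with the libraries labelled mutant above, and 6.79% with them below. The part of these cell types in the members' values was not tested. Beside them, Mmp9 and Mmp13 rose and the 35 members did not pass.

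Labelled mutant 3 was the highest library for 9 of the 35 members, 25.7% against 22.0% of all genes tested. Mmp23, Adamts14, Adamts4, Timp1 and Timp2 were among them, and the bone collagen Col1a1 was also highest there, at 13131 FPKM against 9427 to 10866 FPKM in the other libraries. The spread relative to the mean was larger in the libraries labelled mutant for 21 of 35 members, 60% against 48.6% of all genes. Leaving this library out gave no call among the members.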

How the data were processed

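RNA of newborn calvaria was sequenced in 6 libraries, 3 per group, after a stranded messenger RNA preparation, per the labels' protocols. Values are FPKM as deposited by the authors. The submitters' processing notes name the build mm10 and the programs Cufflinks 2.2.1, TopHat2 2.0.13, SAMtools 0.1.19 and Bowtie2 2.2.3. Options, annotation, strand use in counting and read totals are not given in the sources used here. Cufflinks divides ambiguous fragments by a model, and FPKM scales to the library total, so that abundant genes can shift the rest.

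Groups and replicate numbers came from the sample titles. The test was limma 3.58.1 (R 4.3.3, lmFit and eBayes with trend, two-sided, group as the term) on log2(FPKM + 1) of names that averaged 1 FPKM or more, with Benjamini-Hochberg adjustment over 13180 genes at 0.05. Log2 differences are on that scale, which understates changes of low genes, and ratios are of mean FPKM. Whole reads could not be recovered, so no count test was run. The spread between libraries gives the precision, with each gene's spread drawn by eBayes toward that of genes of similar level. No list was tested as a set.

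In each family, the 4 tested members with the smallest p and the 3 most abundant were given in full, with pathway genes past the threshold and the 2 of smallest p in each pathway list. Members and lists were chosen with earlier results of these data known. Positions, overlaps and zinc-site sequences are from GENCODE M21 on GRCm38, which mm10 denotes, matched by symbol. Alternatives were the pseudocount, the filter, the scaling, the eBayes options, a replicate block, a sex term read from the libraries, and leaving out each library.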

Additional observations from a re-analysis of the deposited data

How the results depend on the processing

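Members called stayed at 0 in each direction in all 15 alternatives, by limma, with 3 to 7 members at an unadjusted p under 0.05 and a smallest member adjusted p between 0.186 (eBayes without trend) and 0.457 (without control 2). Among all genes, 69 were called higher and 11 lower; with no filter these were 44 and 6, and with the sex term 41 and 2. Leaving out 1 library gave 14 to 34 higher and 1 to 12 lower, over fewer samples. The replicate numbers do not pair the libraries: deviations of same-numbered libraries correlated at 0.02, -0.07 and 0.02, those of other numbers at -0.06 to 0.05. A replicate block gave 23 genes higher and 2 lower, and 0 members. Of 295 alternative log2 differences of the 20 members given in full, 283 kept their direction. The 12 others were in 5 members with estimates near 0. Leaving out 1 library moved Adamts1 between -0.19 and 0.13, Adamts10 between -0.10 and 0.042, Adamtsl1 between -0.0071 and 0.090, Mmp23 between -0.19 and 0.11 and Timp4 between -0.26 and 0.24. Mmp23 was also at -0.0024 with quantile normalization and -0.040 with the sex term, and Timp4 at 0.10 with the sex term. Mmp14 ranged between -0.034 and 0.11. Serpine2 did not pass with the replicate block (limma adjusted p = 0.068) or without labelled mutant 1. Eln passed with robust eBayes (0.0415) and in no other alternative (0.0539 to 0.236). The cause of these changes was not tested. Absolute depth is unknown, so values under 1 FPKM carry no limit of detection.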

Other observations

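Some members are neighbours in the genome. Adamts1 and Adamts5, 53.1 kb apart, had ratios of 0.951 and 1.14. Adamts8 and Adamts15, 20.1 kb apart, had ratios of 0.787 and 0.985. Adamts13 and Adamtsl2, 69.8 kb apart, had ratios of 1.42 and 0.698. The difference within each pair was not tested.

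The values of enzymes and substrates are set side by side by role. The procollagen N-proteinases Adamts2, Adamts3 and Adamts14 had ratios of 0.849, 0.921 and 1.10. Beside them, the ratio was 0.244 for the cartilage collagen Col2a1 and 1.05 for the bone collagen Col1a1. The 7 proteoglycanases had ratios on both sides of 1, at 0.787 for Adamts8, 0.951 for Adamts1, 0.953 for Adamts20, 0.985 for Adamts15, 1.02 for Adamts9, 1.12 for Adamts4 and 1.14 for Adamts5, beside 0.669 for Acan. None of these genes passed the threshold of the limma fit.

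Inner ear markers summed to between 3.37 and 79.7 FPKM in controls, highest in control 2, and to between 0.743 and 2.54 FPKM in the libraries labelled mutant. The sum of control 2 was carried by Oc90 (56.6 FPKM) and Otor (22.5 FPKM), while Otog, Tecta and Otos were not highest there. Control 2 was the highest library for 7 of the 35 members (20%), near the 21.3% of all genes tested.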
